A study of Lytechinus variegatus with 64 samples.

Results

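The comparison of gut with esophagus rests on 8 of the 64 bulk RNA-seq libraries of a survey of the sea urchin Lytechinus variegatus that covers adult tissues, eggs and juvenile gonads. Of these 8, 4 carry the label Gut and 4 the label Esophagus. Rows of the deposited count table whose identifier was joined to another by a semicolon, or whose counts were incomplete, were dropped, and 25887 genes were left. The test of gut against esophagus covered the 17133 genes with enough counts in those 8 libraries. The 3 Rectum and 3 Mouth libraries were used to place the changed genes along the tract. All 14 libraries came from polyA RNA of dissected wild-type adults and were prepared by 1 sequencing provider. The labels give no age or sex for these animals and do not say which stretch of the tract was cut for each tissue. They also do not say whether replicates are separate animals, so the p-values below speak of the spread among these libraries, which may be technical.

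In a sea urchin, food bitten off by the jaw apparatus passes from the mouth through the esophagus into a long looped gut and leaves through the rectum. The gut epithelium secretes digestive enzymes and takes up and stores nutrients. The esophagus carries food pellets onward. Genes are given by their locus identifiers, because neither the count table nor the reference table used here pairs identifiers with products. For the same reason the tissue labels could not be checked against known marker genes, and no function is given for any gene below.

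Library totals in the 14 digestive libraries ran from 13113913 counts in Esophagus 3 to 34369829 in Gut 1. One library stood apart. In Gut 2, 46.4% of the counts fell on its 10 most abundant genes, against 17.6% to 22.5% in the other gut libraries and 13.1% to 23.7% in the esophagus libraries. Its TMM scaling factor, which corrects for such dominance, was 0.321, against 0.718 to 0.943 in the other gut libraries. The counts of genes called, and the fold changes of named genes far higher in Gut 2, are therefore also given without it. Most other summaries, among them fold classes, SDs and runs of neighbouring genes, include Gut 2 throughout. Levels are normalized CPM, that is, library-size scaled counts (CPM) on TMM-scaled library sizes, and log2 levels have 0.5 CPM added.

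Gut differed from esophagus at 1415 of the 17133 genes tested (8.26%). Of these, 836 genes were higher in gut (4.88% of genes tested) and 579 were lower (3.38%). A gene counted as called when the Benjamini-Hochberg adjusted p of edgeR's quasi-likelihood test was under 0.05 and the fold change at least 2. The lowest adjusted p was 0.000217, and 4241 genes had an unadjusted p under 0.05. The median log2 fold change over all genes tested was -0.02. These libraries are pieces of whole tissue, so fewer cells of a type and less RNA per cell cannot be told apart in any of these differences.

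The number of genes called lower depended on single libraries, more than the number called higher. Leaving out 1 library at a time gave 567 to 789 genes called higher. The count of genes called lower was 193 without Gut 1, 250 without Gut 2, 354 without Gut 4, 366 without Esophagus 2, 303 without Esophagus 3 and 257 without Esophagus 4. Without Gut 3 it was 810, and without Esophagus 1 it was 393. Without Gut 2, the library that stood apart, 621 genes were called higher. The split also moved with the tool: 59.1% of the calls were higher in gut, against 49.0% with DESeq2's Wald test, which called 1378 higher and 1437 lower, and 40.8% with 1 fit over 53 adult libraries, which called 1095 and 1589.

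**Figure D1:**
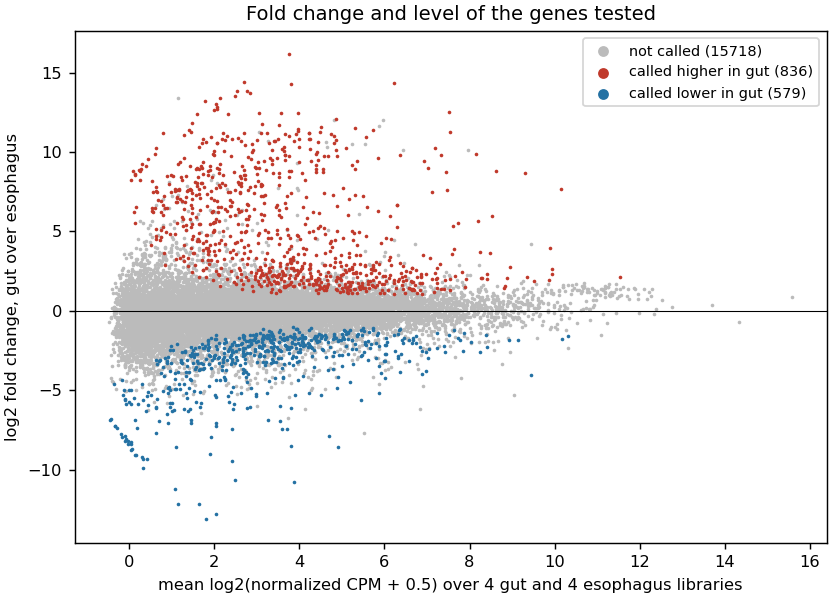
Log2 fold change of gut over esophagus (y axis) against the mean log2(normalized CPM + 0.5) over the 4 gut and 4 esophagus libraries (x axis), 1 point per gene tested. The 836 genes called higher in gut (red) reach larger folds than the 579 called lower (blue), and uncalled genes (grey) fill the centre.

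The genes called higher in gut had the larger fold changes. Their median log2 fold change was 4.45, with quartiles of 2.24 and 7.80. Genes called lower had a median of -2.61, with quartiles of -4.06 and -1.88. A fitted fold has no bound where a tissue has no counts, which was so in esophagus for 26 genes called higher and in gut for 27 genes called lower. With those genes set to the fold over 3 counts in the shallowest library of the tissue at 0, the medians were 4.26 and -2.53. On that scale, 431 genes called higher and 124 called lower differed by at least 16-fold, 313 and 40 by at least 64-fold, and 176 and 7 by at least 256-fold. These values chose the genes, so they describe the sets and are not a test of them.

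A large fold was not enough to be called. Of the 2792 genes at least 2-fold higher in gut, 29.9% were called, and of the 3371 at least 2-fold lower, 17.2%. At 16-fold or more, 82.9% of the genes higher in gut and 63.5% of the genes lower were called. The 175 uncalled genes with such folds included 93 whose SD of log2 level within the higher tissue was over 2.

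Most called genes were well above the detection limit. Of the 836 genes called higher, 753 averaged at least 10 CPM in gut and 291 at least 100 CPM. Of the 579 called lower, 433 averaged at least 10 CPM in esophagus and 93 at least 100 CPM. When the genes tested were cut into 4 equal bins by their mean level, 5.25% of the lowest bin were called, then 8.36%, 9.22% and 10.2% of the highest. The rise was in the genes higher in gut, from 2.50% of the lowest bin to 6.91% of the highest, while the genes lower in gut made up 2.75%, 3.48%, 3.99% and 3.29%. The median standard error of the log2 fold change was 1.02 in the lowest bin and 0.39 in the highest. The precision, too, thus differed between the bins.

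Called genes took a large share of the gut transcriptome. The genes called higher made up 20.4% to 22.6% of all counts in Gut 1, Gut 3 and Gut 4 and 38.8% in Gut 2, against 1.18% to 2.32% in the esophagus libraries. The genes called lower made up 0.220% to 0.796% of counts in gut and 4.30% to 5.60% in esophagus. By the reference's gene types, 799 of the genes called higher and 555 of those called lower were protein coding (95.6% and 95.9%, against 93.9% of all genes tested), and 25 and 16 were long non-coding RNAs.

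Replicates of a tissue were closer to each other than to the other tissue. Across the genes tested, the median Spearman coefficient was 0.869 between gut libraries (6 pairs, 0.832 to 0.879) and 0.846 between esophagus libraries (6 pairs, 0.831 to 0.865). Between a gut and an esophagus library it was 0.690 (16 pairs, 0.614 to 0.753). These coefficients run across genes that share a library and its depth, and they are given as a description. Gut 3 was the gut library nearest to esophagus, with a mean coefficient of 0.736, against 0.653 for Gut 2, the farthest. Gut 4 was nearest to rectum, with a mean of 0.810 over the 3 rectum libraries, against 0.693 to 0.752 for the other gut libraries.

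**Figure D2:**
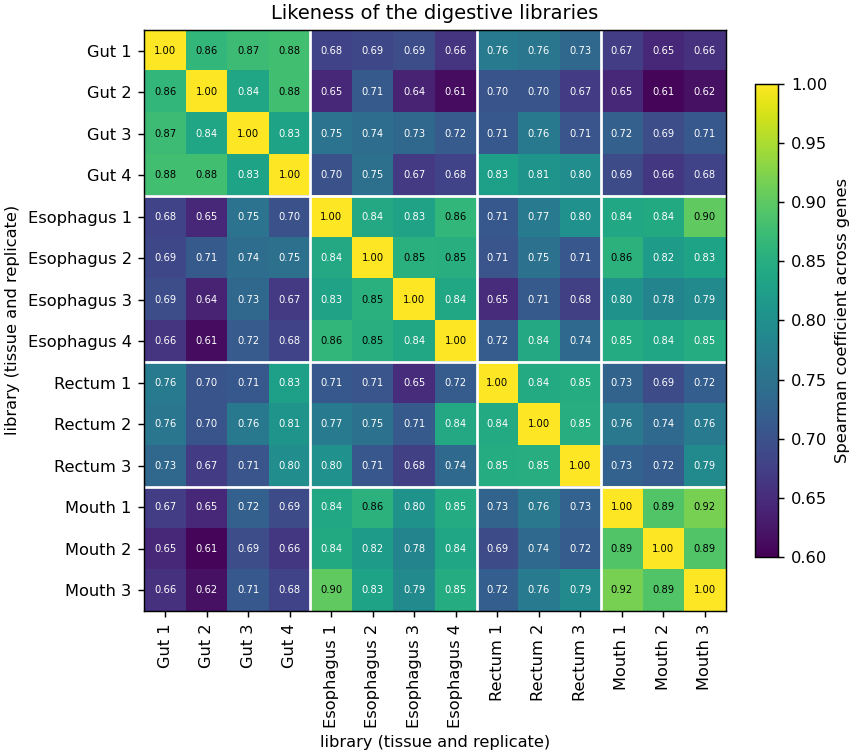
Spearman coefficients across the 17133 genes tested between the 14 digestive libraries, as colour and printed value. The esophagus block against mouth is nearly as bright as the esophagus block itself, and gut against esophagus or mouth is the darkest area.

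Per gene, the tissues separated cleanly in most calls. Every gut library lay above every esophagus library at 822 of the 836 genes called higher, and below at 566 of the 579 called lower. Over all genes tested, such separation was found at 9.59% of genes in the upward and 9.53% in the downward direction. The same 8 libraries chose the called genes, so their separation was largely fixed by that choice and is not a test of them. Largely by the same choice, the direction was the same in all 8 fits that left out 1 library for 832 of the genes called higher and for all 579 called lower. The calls themselves were kept in all 8 fits at 433 genes called higher (51.8%) and at 146 called lower (25.2%). Genes called higher varied more among gut libraries than genes at large did: the median SD of their log2 level was 0.69 in gut and 0.55 in esophagus, against 0.57 and 0.64 over all genes tested.

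The gut libraries disagreed strongly on a group of abundant genes. At 209 genes with a mean of at least 10 CPM in gut, the highest and lowest gut library were at least 64-fold apart. Of these, 66 were called higher in gut, while 4.88% of all genes tested were. In esophagus 56 genes met the same rule. Of the 209, 84 were highest in Gut 2, and 53 of those 84 were called. The 84 genes made up 1.08% of counts in Gut 1, 53% in Gut 2, 14.6% in Gut 3 and 0.331% in Gut 4, against 0.108% to 0.273% in esophagus. Gut 3 was the second highest gut library at 73 of them, and Gut 4 the lowest at 76. Gut levels chose these genes. Their large share in Gut 2 follows from that choice, as in part do their calls and their distance from esophagus.

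The 84 genes also differed among libraries of the other tissues. They made up 2.41% of counts in Rectum 2, against 0.0513% in Rectum 1 and 0.0368% in Rectum 3. Rectum 2 was the highest rectum library at 77 of them, while it was the highest at 33.2% of all genes tested. In esophagus the highest library was most often Esophagus 1, at 54 of them, and Esophagus 2 was highest at 18. In mouth it was Mouth 1 at 35, Mouth 2 at 18 and Mouth 3 at 22, and the genes made up 0.131% to 0.158% of counts there. Whether equal numbers mean a shared animal or a shared preparation is not stated in the labels, and the part of either in this pattern was not tested.

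The genes with the largest fitted fold changes upward were nearly silent in esophagus. LOC121412641 had 351, 657, 293 and 253 CPM in the 4 gut libraries and no counts in any esophagus library. It was at least 1453-fold higher in gut, taking 3 counts in the shallowest esophagus library as the limit (adjusted p = 0.000582), and it averaged 0.787 CPM in rectum and 0.102 CPM in mouth. The gut libraries lay within a narrow range, and the gene was called in all 8 fits without 1 library.

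LOC121423029 had 156, 30.0, 245 and 40.2 CPM in gut and no counts in esophagus. It was at least 440-fold higher in gut (adjusted p = 0.00324), and was at 0.0615 to 0.632 CPM in rectum. LOC121430626 had 907, 627, 358 and 96.7 CPM in gut, against 0.0658, 0, 0 and 0 CPM in esophagus, where 2 counts were found in all (adjusted p = 0.000569). Both genes were called in all 8 fits without 1 library, and at both the gut and esophagus libraries lay far apart.

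At the other named genes with the largest fitted folds, Gut 2 was far above the other gut libraries. LOC121432239 had 2095, 180350.0, 2169 and 156 CPM in gut, against 7.57, 0.539, 1.25 and 0 CPM in esophagus, a log2 fold change of 14.33 ± 3.33 (SE, adjusted p = 0.0306). LOC121427689 had 38.6, 8397, 34.6 and 2.32 CPM in gut, against 0.132, 0, 0 and 0.364 CPM in esophagus, a log2 fold change of 13.86 ± 3.18 (SE, adjusted p = 0.0290). Gut 2 alone held most of the RNA of both genes, although each gut library was above each esophagus library. Without Gut 2 the log2 fold changes were 9.26 (adjusted p = 0.0345) and 7.36 (adjusted p = 0.0194). The call of LOC121432239 was lost without Esophagus 2, Esophagus 3 or Esophagus 4 (adjusted p = 0.0627 to 0.0846). That of LOC121427689 was lost without any 1 of the 4 esophagus libraries (adjusted p = 0.0694 to 0.0787).

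Among the called genes with the highest levels in gut, 2 more were far higher in Gut 2. LOC121430444 had 2161, 342523, 30560.2 and 467 CPM in gut, against 66.1, 1.12, 1.25 and 0.112 CPM in esophagus (log2 fold change 12.50 ± 3.28, SE, adjusted p = 0.0472). LOC121420116 had 1220.4, 181825, 25064 and 312 CPM in gut, against 83.4, 2.83, 1.43 and 1.06 CPM in esophagus (log2 fold change 11.27 ± 2.89, SE, adjusted p = 0.0431). The order of the gut libraries was the same at both genes, with Gut 2 highest and Gut 4 lowest, and Esophagus 1 was the highest esophagus library at both. Without Gut 2 neither was called, with log2 fold changes of 9.33 (adjusted p = 0.0810) and 8.64 (adjusted p = 0.0754), and each was called in 2 of the 8 fits without 1 library. The other calls of both genes were lost without Gut 1, Gut 3, Esophagus 2, Esophagus 3 or Esophagus 4 (adjusted p = 0.0544 to 0.105 for LOC121430444 and 0.0514 to 0.0966 for LOC121420116).

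LOC121428736 ran the other way among the gut libraries. It had 34813, 451, 25685 and 52968 CPM in gut, against 30.5, 146, 90.9 and 2.49 CPM in esophagus (log2 fold change 8.69 ± 1.78, SE, adjusted p = 0.0191). Gut 2 was the low library here, and still above every esophagus library. The call was lost without Esophagus 1 (adjusted p = 0.0508) or Esophagus 3 (adjusted p = 0.0564). Rectum held 5460.3, 5737 and 14728 CPM of this gene and mouth 123, 504 and 116 CPM, so rectum was above mouth in every library (log2 fold change 5.09 ± 0.84, SE, adjusted p = 0.0182).

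LOC121418656 was abundant in each gut library, with 22783, 35459, 13889 and 10616 CPM. Esophagus had 15.5, 173, 172 and 51.0 CPM (log2 fold change 7.64 ± 1.09, SE, adjusted p = 0.00387), and the call held in all 8 fits without 1 library. Rectum did not share this level: it had 22.3, 576 and 26.4 CPM, against 278, 178 and 495 CPM in mouth, and the ranges overlapped (adjusted p = 0.819 for rectum over mouth). Over the 14 adult tissues with replicates the gene was highest in gut. Unfertilized eggs are counted among these 14 here and below.

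At 5 named genes called lower, no gut library had a count, so their folds are lower bounds. LOC121431967 had no counts in the 4 gut libraries and 5.23, 11.6, 132 and 40.1 CPM in esophagus, at least 119-fold lower in gut by the limit of 3 counts in the shallowest gut library (adjusted p = 0.0133). LOC121425927 had no counts in gut and 22.3, 77.9, 30.0 and 23.7 CPM in esophagus, at least 97.5-fold lower in gut (adjusted p = 0.00137). LOC121424752 had no counts in gut and 6.16, 15.8, 29.4 and 45.7 CPM in esophagus, at least 61.5-fold lower (adjusted p = 0.00358). All 3 were called in all 8 fits without 1 library, and over the 14 adult tissues all 3 were highest in esophagus.

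LOC121406569, a long non-coding RNA, had no counts in gut and 1.48, 1.71, 60.2 and 32.7 CPM in esophagus, at least 60.9-fold lower in gut (adjusted p = 0.0287). Its esophagus libraries fell into a low and a high pair, and the call was lost without Gut 1, Gut 2, Esophagus 3 or Esophagus 4 (adjusted p = 0.0534 to 0.0652). LOC121424193 had no counts in gut and 2.63, 3.10, 24.1 and 21.9 CPM in esophagus, at least 32.7-fold lower in gut (adjusted p = 0.0119). It showed the same low and high pair of esophagus libraries and was called in all 8 fits. Its mean was 41.2 CPM in mouth, against 12.9 CPM in esophagus, and it was called lower in rectum than in mouth (adjusted p = 0.0129). Over the 14 adult tissues LOC121424193 was highest in tube foot and LOC121406569 in axial gland.

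The 5 most abundant genes called lower include 4 that were present at over 100 CPM in every gut library. LOC121410366, a long non-coding RNA, had 154, 143, 450 and 167 CPM in gut, against 1028, 1031, 9373 and 3287 CPM in esophagus (log2 fold change -4.05 ± 0.91, SE, adjusted p = 0.0262). Esophagus 3 stood well above the other esophagus libraries, and the call was lost without Gut 1, Gut 2, Gut 4 or Esophagus 4 (adjusted p = 0.0539 to 0.0814). LOC121410924 had 661, 577, 1013 and 691 CPM in gut, against 2262, 1895, 2506 and 2269.8 CPM in esophagus (log2 fold change -1.61 ± 0.39, SE, adjusted p = 0.0362). LOC121431099 had 609.7, 591, 832 and 545 CPM in gut, against 1626, 1830.0, 2748 and 2434 CPM in esophagus (log2 fold change -1.75 ± 0.40, SE, adjusted p = 0.0298). At both genes each tissue held a tight range and Gut 3 was the gut library nearest to esophagus. The calls were close to the threshold. That of LOC121410924 was lost without any 1 library other than Gut 3 (adjusted p = 0.0517 to 0.116), and that of LOC121431099 without any 1 other than Gut 3 and Esophagus 1 (adjusted p = 0.0529 to 0.0978).

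LOC121430517 had 204, 238, 294 and 530.1 CPM in gut, against 1393, 660.4, 1062 and 1345 CPM in esophagus (log2 fold change -1.82 ± 0.45, SE, adjusted p = 0.0390). Gut was the low tissue of the tract at this gene, since rectum averaged 1131 ± 237 CPM and mouth 1102 ± 348 CPM (SD, n = 3 each). The call was lost without any 1 library other than Gut 4 and Esophagus 2 (adjusted p = 0.0685 to 0.115).

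**Figure D3:**
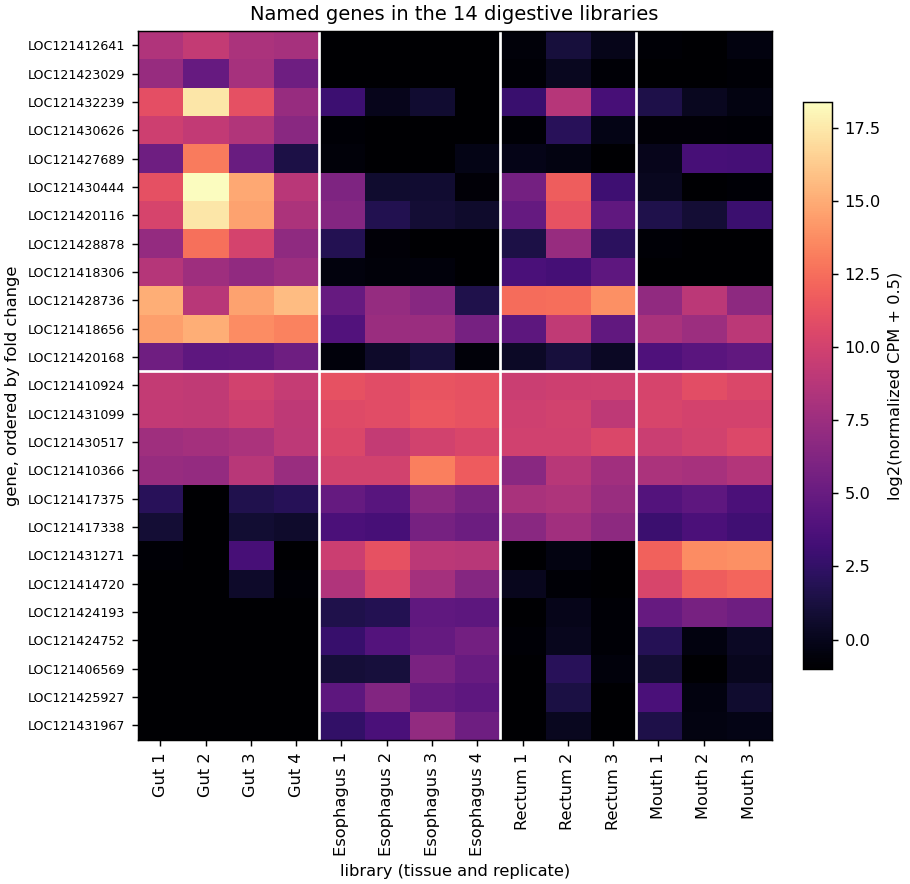
Log2(normalized CPM + 0.5) of the 25 named genes (rows, ordered by log2 fold change of gut over esophagus, genes called higher above the line) in the 14 digestive libraries (columns). Brighter cells are higher levels; Gut 2 and, more faintly, Rectum 2 stand out at LOC121430444, LOC121420116 and LOC121432239.

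The changed genes took different positions in rectum and in mouth. Averaged over libraries, the median log2 level of the genes called higher was 5.58 in gut, 1.32 in esophagus, 3.60 in rectum and 1.52 in mouth. That of the genes called lower was 1.86 in gut, 4.32 in esophagus, 2.83 in rectum and 4.16 in mouth. The medians of all genes tested were 2.98, 2.97, 3.07 and 3.05 in the same tissues. Rectum thus stood between gut and esophagus for both sets, and mouth stood close to the esophagus level for both. The gut and esophagus levels chose the sets, and only the rectum and mouth levels are free of that choice. Comparisons that set rectum or mouth beside the gut or esophagus levels are not free of it.

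**Figure D4:**
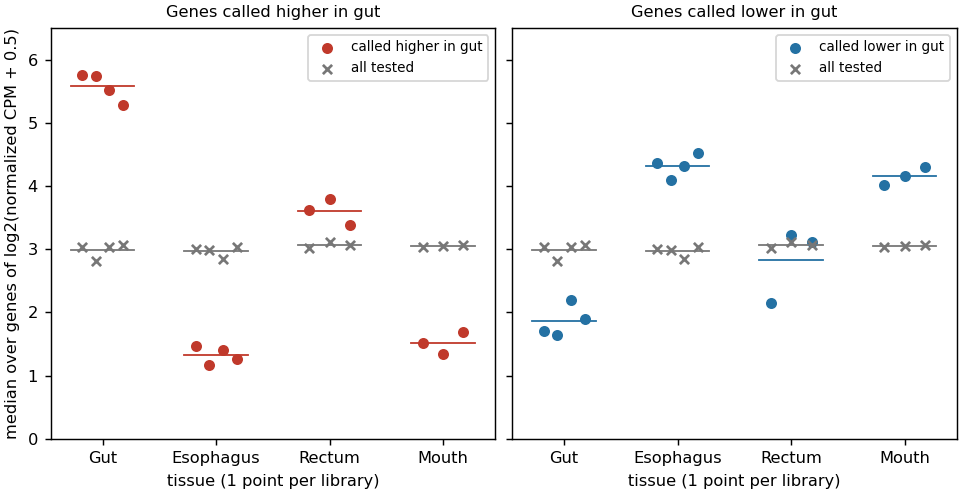
Median over genes of log2(normalized CPM + 0.5) in each library (1 point per library, line at the mean of the tissue) for the 836 genes called higher (left) and the 579 called lower (right), with all genes tested as grey crosses. Mouth libraries sit beside the esophagus libraries in both panels; rectum libraries sit between, with Rectum 1 at 2.15 in the right panel, below the other rectum libraries.

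Gene by gene, rectum was more often on the gut side than mouth. The mean log2 level of rectum was nearer to gut than to esophagus at 327 of the genes called higher (39.1%) and at 398 of those called lower (68.7%), against 45.5% of all genes tested, so its share was below that of genes at large in the first set and above it in the second. That of mouth was nearer to gut at 71 of the 836 genes called higher (8.49%) and at 83 of the 579 called lower (14.3%), against 32.2% of all genes tested. Rectum on the gut side together with mouth on the esophagus side was the state of 279 genes called higher (33.4%) and 324 called lower (56.0%), against 24.9% of all. The opposite arrangement was found at 23 and 9 genes (2.75% and 1.55%, against 11.6% of all genes tested). With CPM on total counts in place of TMM-scaled sizes, the rectum counts were 448 and 300 genes, and the mouth counts 132 and 51.

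The share of counts showed the same positions. The genes called higher made up 8.25% to 11.4% of counts in rectum and 1.70% to 2.07% in mouth. The genes called lower made up 1.61% to 2.64% in rectum and 6.18% to 9.44% in mouth. All 3 rectum libraries were above every esophagus library at 343 of the 836 genes called higher (41.0%, against 9.13% of all genes tested) and below every gut library at 466 (55.7%, against 12.5%). All 3 mouth libraries were below every gut library at 740 of the 836 (88.5%, against 16.3%). Of the 579 genes called lower, rectum was above every gut library at 159 (27.5%, against 11.6%) and below every esophagus library at 317 (54.7%, against 10.3%). Mouth was above every gut library at 483 of the 579 (83.4%, against 16.5%). The gut and esophagus libraries chose these genes, so counts against their ranges follow in part from that choice and are a description only.

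Whole-library likeness had the same order. The median Spearman coefficient was 0.746 between gut and rectum libraries (12 pairs) and 0.669 between gut and mouth (12 pairs). It was 0.714 between esophagus and rectum and 0.837 between esophagus and mouth (12 pairs each). The value for esophagus with mouth was close to that among the esophagus libraries themselves.

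Rectum was then compared with mouth in a fit of their 6 libraries, which shares no library with gut versus esophagus. Of 18167 genes tested, 1082 were called (5.96%), 508 higher in rectum (2.8%) and 574 lower (3.16%), with a lowest adjusted p of 0.00141. Of the genes called higher in gut, 688 were tested here, and 160 of them were higher in rectum (23.3%) and 1 was lower. Of the 571 tested genes called lower in gut, 81 were lower in rectum (14.2%) and 3 were higher. Over the 16577 genes tested in both comparisons, 2.30% were called higher and 2.58% lower in rectum. Counted by libraries alone, every rectum library was above every mouth library at 332 of the 688 genes (48.3%, against 13.7% of the 18167 genes) and below at 280 of the 571 (49.0%, against 14.7%).

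The counts shared by both comparisons depended on the mouth libraries. The 160 genes became 63 without Mouth 1, 76 without Mouth 2 and 74 without Mouth 3, and lay between 125 and 170 without any other single library. The 81 genes became 38 without Gut 1, 50 without Gut 2, 45 without Gut 4, 48 without Esophagus 2, 46 without Esophagus 3 and 51 without Esophagus 4. They became 53 without Rectum 1, 53 without Rectum 3, 33 without Mouth 1, 43 without Mouth 2 and 37 without Mouth 3, and 163 without Gut 3. Over the whole table of rectum versus mouth, 170 to 489 genes were called higher and 158 to 666 lower without 1 library, with the top of both ranges reached without Rectum 2.

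Folds in rectum over mouth had the sign of the gut call at most of these genes. The median log2 fold change of rectum over mouth was 1.43 for the genes called higher in gut and -1.17 for those called lower, against 0.01 for the genes tested in both comparisons. It was above 0 at 79.4% of the genes called higher and at 17.2% of those called lower, against 50.4%. Among genes called higher in gut by 2- to 4-fold, 3 of 157 were also higher in rectum (1.91%). This was below the 2.30% of all genes tested in both comparisons. By 64-fold or more, 76 of 193 were also higher in rectum (39.4%). Among genes called lower by 2- to 4-fold, 7 of 165 were also lower in rectum (4.24%, against 2.58% of all genes tested in both comparisons). By 64-fold or more, 29 of 59 were also lower in rectum (49.2%). The 193 tested genes are those of 327 called higher by 64-fold or more that had enough counts in rectum and mouth. These classes use the fitted folds, without the limit set for genes at 0.

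**Figure D5:**
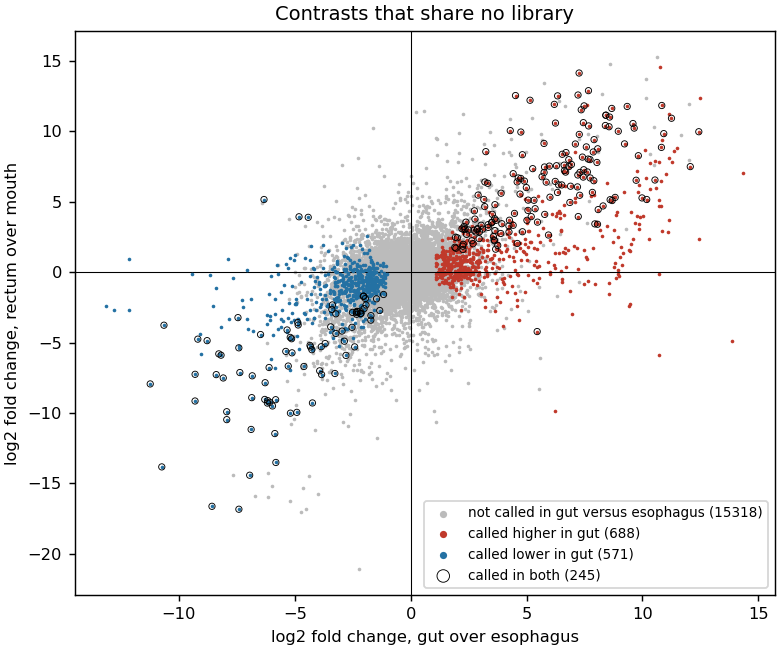
Log2 fold change of rectum over mouth (y axis) against log2 fold change of gut over esophagus (x axis) for genes tested in both comparisons, which share no library. Red and blue points are genes called higher and lower in gut, and black rings mark the 245 called in both comparisons; most rings lie in the upper right (160 genes) and lower left (81 genes).

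Genes called in the same direction in both comparisons are shown by 4 examples. LOC121418306 had 409, 191, 128 and 182 CPM in gut, against 0.197, 0.135, 0.178 and 0 CPM in esophagus (log2 fold change 10.83 ± 0.95, SE, adjusted p = 0.000569). It had 11.8, 9.58 and 23.3 CPM in rectum and no counts in mouth (adjusted p = 0.00685). LOC121428878 had 141, 6265, 1149 and 117 CPM in gut, against 3.09, 0.0898, 0 and 0 CPM in esophagus (log2 fold change 11.25 ± 2.51, SE, adjusted p = 0.0257). At this gene Gut 2 and Rectum 2 were the high libraries, with 2.29, 152 and 4.21 CPM in rectum against 2 counts in all in mouth (adjusted p = 0.0432). Without Gut 2 the log2 fold change of gut over esophagus was 9.13 (adjusted p = 0.0442), and the call was lost without Esophagus 2, Esophagus 3 or Esophagus 4 (adjusted p = 0.0558 to 0.0653).

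LOC121431271 was a gene of mouth and esophagus. It had 0.0708, 0, 10.2 and 0 CPM in gut, against 830.1, 2281, 502 and 449.98 CPM in esophagus (log2 fold change -8.57 ± 2.14, SE, adjusted p = 0.0390). Rectum held 0, 0.285 and 0.0308 CPM, against 4129, 13640.2 and 14753 CPM in mouth (log2 fold change -16.63 ± 1.63, SE, adjusted p = 0.00475). LOC121414720 had the same shape, with 0, 0, 0.971 and 0.0827 CPM in gut, against 343, 1332, 242 and 86.2 CPM in esophagus (log2 fold change -10.74 ± 1.69, SE, adjusted p = 0.00645). Its rectum libraries had 0.573, 0.0632 and 0 CPM, against 1274, 3452 and 4589 CPM in mouth (log2 fold change -13.83 ± 1.70, SE, adjusted p = 0.00816). Gut 3 was the highest gut library at both genes. In gut versus esophagus the call of LOC121431271 was lost without any 1 library other than Gut 3 (adjusted p = 0.0530 to 0.0803), and that of LOC121414720 held in all 8 fits.

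Few genes crossed over. LOC121420168 was the only gene called higher in gut and lower in rectum. It had 42.1, 23.3, 24.8 and 39.4 CPM in gut, against 0.165, 0.988, 1.78 and 0.140 CPM in esophagus (log2 fold change 5.46 ± 0.86, SE, adjusted p = 0.00639). Rectum had 0.795, 1.71 and 0.738 CPM, against 13.4, 19.5 and 26.2 CPM in mouth (log2 fold change -4.22 ± 0.53, SE, adjusted p = 0.00842). Gut and mouth were thus the high tissues at this gene, and no library of either overlapped with esophagus or rectum.

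LOC121417375 and LOC121417338 were 2 of the 3 genes lower in gut and higher in rectum. LOC121417375 had 3.61, 0, 2.74 and 3.39 CPM in gut, against 28.7, 18.6, 102 and 58.4 CPM in esophagus (log2 fold change -4.42 ± 0.97, SE, adjusted p = 0.0245). It had 284, 327 and 163 CPM in rectum, against 15.7, 23.4 and 11.8 CPM in mouth (log2 fold change 3.89 ± 0.47, SE, adjusted p = 0.00816). Rectum was the high tissue and gut the low one, and the call in gut was lost without Gut 1, Gut 4, Esophagus 3 or Esophagus 4 (adjusted p = 0.0507 to 0.0611). LOC121417338 averaged 0.953 ± 0.652 CPM in gut and 27.7 ± 19.8 CPM in esophagus (SD, n = 4 each), and 142 ± 67.0 CPM in rectum and 9.08 ± 2.84 CPM in mouth (SD, n = 3 each). Its adjusted p was 0.0129 for gut over esophagus and 0.00842 for rectum over mouth. Rectum was the highest of the 14 adult tissues at both genes.

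Called genes often lay beside each other in the genome. By the gene order of the RefSeq table, 215 of the 836 genes called higher had a direct neighbour that was also called higher (25.7%), against 7.0% of all genes tested. For genes called lower the count was 124 of 579 (21.4%), against 4.81% of all genes tested. Near-identical neighbouring copies can share reads, and neither sequence likeness nor the setting for reads that fit several places was available, so its part in these counts was not tested.

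The longest run held 7 genes called higher, and its members differed widely in level. LOC121428730 had 4954, 3481, 2580 and 2161 CPM in gut, against 6.16, 5.12, 6.59 and 1.46 CPM in esophagus (log2 fold change 9.40 ± 0.78, SE, adjusted p = 0.000520). LOC121428315 of the same run had 196, 186, 142 and 54.0 CPM in gut, against 0, 0.0898, 0 and 0 CPM in esophagus (adjusted p = 0.0005). LOC121429285 had 65.1, 48.7, 78.9 and 82.2 CPM in gut, against 7.67, 4.53, 6.77 and 5.23 CPM in esophagus (log2 fold change 3.50 ± 0.34, SE, adjusted p = 0.000613). The last of these was also present in rectum at 28.1, 44.0 and 72.4 CPM, while LOC121428730 was at 6.01, 23.0 and 9.63 CPM there. The genes of these runs were looked at after their values were known.

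A run of 5 genes called higher followed the Gut 2 pattern. At LOC121429227 the gut libraries had 37.3, 2646, 405 and 12.3 CPM, against 1.81, 0, 0 and 0 CPM in esophagus, and Rectum 2 had 73.3 CPM against 1.46 and 0.646 CPM in Rectum 1 and Rectum 3. The other 4 members, LOC121428980, LOC121428981, LOC121428982 and LOC121429297, were likewise highest in Gut 2 among the gut libraries and in Rectum 2 among the rectum libraries. The longest run of genes called lower had 5 members, among them LOC121431967 and LOC121424752. Its most abundant gene, LOC121424733, had 1.45, 0.263, 7.55 and 1.41 CPM in gut, against 77.6, 158, 1889 and 386 CPM in esophagus (log2 fold change -7.90 ± 1.49, SE, adjusted p = 0.0137).

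Across the 12 other adult tissues with replicates, the genes called higher in gut were most often highest in rectum. Rectum was the highest of the 12 at 326 of them (39.0%), against 10.5% of all genes tested, and axial gland at 171 (20.5%), against 6.49%. The axial gland is an organ tied to the hemal system. With gut and esophagus included, gut was the highest of the 14 tissues at 616 of the 836 (73.7%, against 12.9% of all genes tested). The genes called lower were spread over several tissues: ovary was the highest of the 12 at 112 (19.3%, against 30.3% of all genes tested), tube foot at 106 (18.3%, against 4.76%), mouth at 87 (15.0%, against 5.62%) and radial canal at 69 (11.9%, against 8.55%). Esophagus was the highest of the 14 at 90 of the 579 (15.5%, against 4.37%). Gut and esophagus levels chose the genes, so the rankings over 14 tissues follow in part from that choice. The rankings over the 12 others do not use those levels.

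Gene sets elevated in 1 of the 10 non-digestive adult tissues, with unfertilized eggs counted as 1, served in place of markers of other tissues. A set held genes of at least 10 CPM in its tissue, at least 4-fold above each of the other 9 and with no overlap of libraries. In all, 27 genes of these sets were called higher in gut and 33 lower, and 23 and 27 of them belonged to the ovary set of 1389 genes. Of the 1316 ovary set genes tested, 1.75% were called higher and 2.05% lower, below the 4.88% and 3.38% of all genes tested. No other set had more than 28 genes tested. The radial canal set (38 genes) made up 0.0181% to 0.0646% of counts in gut and 0.0931% to 0.153% in esophagus. The tube foot set (74 genes) made up 0.00176% to 0.00856% in gut and 0.0120% to 0.0188% in esophagus. The lantern muscle set (7 genes, from the jaw apparatus) made up 6.98e-05% to 0.000434% in gut and 0.000624% to 0.00217% in esophagus. The peristomial membrane set (8 genes, from the skin around the mouth) made up 6.34e-06% to 5.24e-05% in gut and 0.000558% to 0.00268% in esophagus. These 4 shares of total counts were lower in gut without overlap of libraries. The shares of all other sets overlapped, as for ovary (1.01% to 2.82% in gut, 2.38% to 4.13% in esophagus). Only 2 genes of the lantern muscle set and 1 of the peristomial membrane set had enough counts to be tested. None of these shares is TMM-scaled, and the TMM factors were 0.321 to 0.943 in gut and 0.856 to 1.345 in esophagus. Once divided by these factors, the shares of the radial canal and lantern muscle sets overlapped between the tissues. For the radial canal set, Gut 3 (0.0646%, factor 0.718) then exceeded Esophagus 2 (0.0931%, factor 1.109). For the lantern muscle set, Gut 3 (0.000434%) then exceeded Esophagus 1 (0.000624%, factor 1.345). The tube foot and peristomial membrane sets stayed apart, the tube foot set narrowly. The part of these sets in the genes called lower was not tested.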

How the data were processed

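PolyA RNA was sequenced as bulk libraries. The authors deposited a gene table of unnormalized read counts with 64 library columns. Per the submitters' processing notes, the tools were STAR, featureCounts and DESeq2, with no version or role stated. The genome build is not given in the sources used here, nor is the use of strand in counting. Of 25890 lines, 3 were broken and left out, and all 25887 identifiers matched a RefSeq table (assembly Lvar_3.0), used for gene type and gene order only. Groups followed the labels, and no 2 libraries held identical counts.

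Each comparison was fitted on the libraries of its own 2 tissues with the quasi-likelihood test of edgeR 4.0.16 in R 4.3.3 (with limma 3.58.1), after TMM scaling and filterByExpr, and p-values were adjusted over all genes tested. A standard error is the log2 fold change divided by the root of its F statistic. CPM were TMM-scaled over the 14 digestive libraries, or over 53 adult libraries, unfertilized eggs included, for comparisons with other tissues. Wilson intervals (95%) around each set's share of counts reached at most 0.0196 percentage points to either side and cover counting error only, as does the limit of 3 counts for a gene at 0. The script was tested on simulated data.

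Named genes were called, averaged at least 10 CPM in the higher tissue and showed no overlap of libraries: the 5 with the largest and the 5 with the smallest log2 fold change, the 5 most abundant called each way, and up to 2 for each combination of directions with rectum versus mouth. Genes of neighbouring runs were added after their values were seen. The comparison, sets and lists were chosen with earlier results of these data known. Lists by product name, protein letters and promoter letters were not used here. Alternatives were DESeq2 1.42.0, DESeq2 size factors, no filter, wider fits, glmTreat, a replicate block, other pseudocounts and margins, CPM on total counts, and each library left out.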

Additional observations from a re-analysis of the deposited data

Results flagged for a closer look

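Within groups of 4 libraries, 10 of the 68 values examined had 1 library far from the other 3, by the ratio of its gap to the whole range. About 1 in 20 would be marked by chance if the values were independent. They are not, since they share libraries, and where 3 libraries are at 0 any count in the other is marked. The number marked is thus not a test. In the gut libraries, Gut 2 stood apart in the share of counts of its 10 most abundant genes (46.4%) and in the share of the genes called higher in gut (38.8%). Gut 2 was also the low library at LOC121428736 (451 CPM), LOC121417338 (0 CPM) and LOC121417375 (0 CPM). Gut 3 was the high library at 3 genes called lower in gut, LOC121410366 (449.6 CPM), LOC121431271 (10.2 CPM) and LOC121414720 (0.971 CPM). In the esophagus libraries, Esophagus 1 was the high library at 2 genes called higher in gut, LOC121430626 (0.0658 CPM) and LOC121428878 (3.09 CPM). The value of LOC121430626 rests on 2 counts, below the limit of 3 counts.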

How the results depend on the processing

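No named gene changed direction under any setting that gave a value. These genes were chosen for having no overlap of gut and esophagus libraries, so their direction was largely fixed by that choice. Over 373 such values for the 25 named genes, 295 were still called and 78 were not, and 12 genes were called throughout; 2 had no adjusted p under DESeq2. DESeq2's Wald test called 1378 genes higher and 1437 lower in gut, and 1157 and 1410 in rectum versus mouth. A test against a fold of 2 (glmTreat) called 505 and 190 in gut, and 364 and 363 in rectum. One fit over the 14 digestive libraries called 962 lower in gut, and 1 fit over 53 adult libraries 1589. Without 1 library, 567 to 789 genes were called higher and 193 to 810 lower in gut, and 170 to 489 and 158 to 666 in rectum versus mouth.

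The genes called in both comparisons numbered 63 to 170 (higher in both) and 33 to 163 (lower in both) without 1 library. With DESeq2 in rectum versus mouth alone they numbered 255 and 183, and with DESeq2 in gut versus esophagus alone 206 and 180. All alternatives for genes called in both comparisons, those without 1 library included, were chosen after seeing the data. CPM on total counts gave 132 and 51 genes whose mouth mean lay nearer to gut, against 71 and 83. For the rectum mean it gave 448 and 300 genes, against 327 and 398. With an 8-fold margin, 10 and 11 genes of the non-digestive sets were called higher and lower. A pseudocount of 2 CPM gave a median Pearson coefficient of 0.880 among esophagus libraries, against 0.862. The cause of these differences was not tested.

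Replicate numbers were not taken to pair the samples, although the labels leave this unstated: same-numbered gut and esophagus libraries had correlations of their deviations of -0.061, 0.261, 0.049 and 0.091, and rectum and mouth 0.163, 0.053 and 0.310, and not every library correlated best with its own number. With the replicate block, 672 genes were called higher and 485 lower in gut, and 339 and 275 in rectum versus mouth; 600 of the 836 and 355 of the 579 genes stayed called. Of the named genes, 7 were not called under the block: LOC121427689 (adjusted p = 0.119), LOC121430444 (0.0615), LOC121420116 (0.0931), LOC121428736 (0.103), LOC121410924 (0.0735), LOC121431099 (0.0665) and LOC121430517 (0.0614). Depth limits the genes at 0: a limit of 3 counts was 0.267 CPM in Esophagus 3 and 0.395 CPM in Gut 2.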
